A study of Mus musculus with 4 samples.

Results

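Aminoacyl-tRNA synthetases are the enzymes that join each amino acid to its transfer RNA, and their transcripts were followed across 4 arrays of E14 mouse embryonic stem cells. The rule that picks the genes reads only their symbols: a probe set of the Affymetrix MoGene 1.0 ST array had to carry exactly 1 gene symbol, and that symbol had to be one of a synthetase, of a scaffold protein of the multisynthetase complex or of the editing protein Aarsd1. The brightest probe set stood for a gene with more than 1. This gave 38 genes of the 19938 measured, namely 19 cytosolic synthetases (Gars and Kars, whose enzymes also work in mitochondria, among them), 16 mitochondrial synthetases, the scaffold genes Aimp1 and Aimp2, and Aarsd1. The alanine enzyme Aars was left out because its probe set is annotated to Aars and Exosc6 together.

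Of the 4 arrays, 2 carried RNA of control cells and 2 RNA of Kdm2b knockdown cells. All were the line E14, of strain inbred 129, grown on gelatin (0.1%) with fetal bovine serum (15%) and leukemia inhibitory factor (1000 units/ml), and all passed through lentiviral transduction (10 MOI) and puromycin (2 µg/ml from 48 h), so the control cells carried a lentiviral vector too. The labels do not say what the control vector held, whether the cells were a pool or a clone, or whether replicates were separate cultures, so every p-value here reflects just the spread among 4 arrays, which may be technical. Kdm2b is the CpG-binding subunit of a variant Polycomb complex, and the series asks what its loss does to lineage genes; the synthetases are housekeeping genes that are no part of that question.

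Each enzyme recognises 1 amino acid and its tRNAs, activates the amino acid with ATP and transfers it to the tRNA, and the charged tRNA is handed to an elongation factor. The enzymes fall into classes I and II by the fold of the catalytic domain. In mammals most amino acids have separate nuclear genes for a cytosolic and a mitochondrial enzyme, and several cytosolic enzymes sit with the scaffolds Aimp1, Aimp2 and Eef1e1 in the multisynthetase complex. When amino acids run short, uncharged tRNA activates the kinase Gcn2 (Eif2ak4), which phosphorylates eIF2 and so favours translation of the transcription factor ATF4. ATF4 is known to raise many cytosolic synthetase genes together with genes of amino acid synthesis and uptake.

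Kdm2b itself read 10.74 and 10.64 in control cells and 9.20 and 9.19 after knockdown (log2 expression, as in all values below), a 2.82-fold fall (adjusted p = 0.0039, limma). Medians of the 4 arrays lay between 8.49 and 8.55. All 9 stem cell markers examined, Pou5f1, Sox2 and Nanog among them, had mean values of 11.71 or more. Of these 9, 1, Lin28a, was lower after knockdown (11.1%, against 7.19% of all genes). Of 7 primitive endoderm markers, 4 were higher (57.1%, against 5% of all genes). The mean over the 7 was 9.12 and 8.90 in control and 9.75 and 10.28 in knockdown cells. The mean of 7 fibroblast markers was 8.63 to 8.74 on the 4 arrays. Of these 7, 1 was higher and 1 lower (14.3% each, against 5% and 7.19% of all genes). The part of the endoderm-marked cells in the results below was not tested, and in bulk RNA fewer cells of a type and less RNA per cell cannot be told apart.

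Of the 38 genes, 3 fell after Kdm2b knockdown, 0 rose and 35 passed the threshold in neither direction (limma, adjusted p under 0.05 over all 19938 genes). The 3 were the cytosolic enzymes for serine, methionine and leucine, Sars, Mars1 and Lars. Over all genes 7.19% were lower and 5% higher by the same rule, so 3 of 38, or 7.89%, is close to the background share. Small negative values were common among the cytosolic genes. Of the 19 cytosolic synthetases, 18 had a log2 fold change below 0, with a median of -0.16 and a range from -0.54 to 0.07. Of all genes 41.7% were below 0, and their median was 0.03. Among all genes with a mean value above 11, a range that holds 18 of the 19 cytosolic synthetases, 51.2% were below 0. The 16 mitochondrial synthetases were split, 9 below and 7 above 0, with a median of -0.05. No test of these medians was made.

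**Figure D1:**
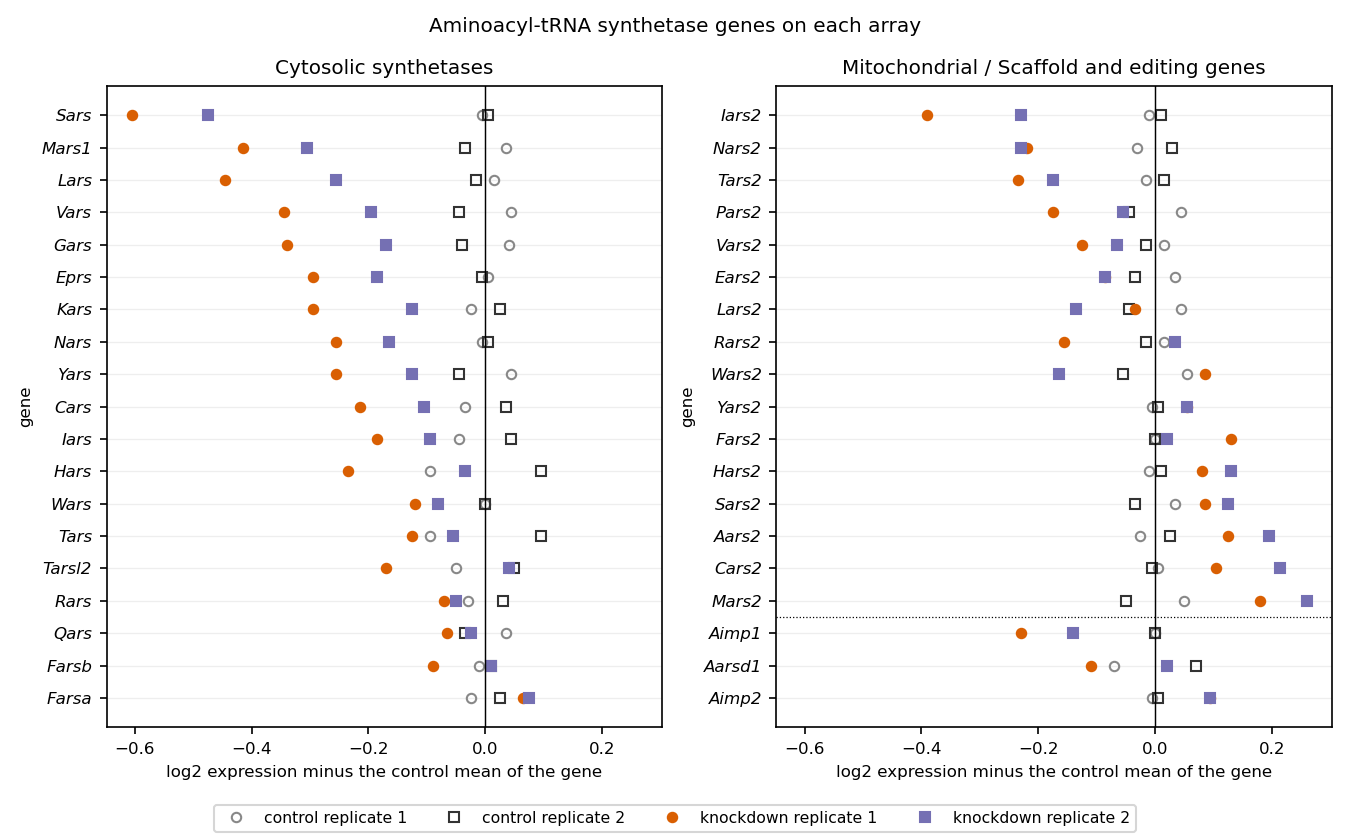
Log2 expression of each gene on each array minus its mean on the 2 control arrays, for 19 cytosolic synthetases (left) and for 16 mitochondrial synthetases and, under the dotted line, 3 scaffold and editing genes (right). Points are single arrays. Sars lies farthest to the left, and on the left panel knockdown replicate 1 is below knockdown replicate 2 for all 19 genes.

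Sars encodes the cytosolic seryl-tRNA synthetase, a class II enzyme that also charges the tRNA on which selenocysteine is made. Its log2 expression was 13.16 and 13.17 in control and 12.56 and 12.69 in knockdown cells. Both knockdown arrays thus lay well below both controls, whose spread was small. The means were 13.165 ± 0.00707 and 12.625 ± 0.0919 (SD, n = 2 each), and Sars fell by 0.54 on the log2 scale (SE 0.0704, 95% interval -0.713 to -0.367, adjusted p = 0.0119, limma), which is 1.45-fold.

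Mars1 encodes methionyl-tRNA synthetase, a class I enzyme of the multisynthetase complex that charges both initiator and elongator methionine tRNAs. It read 12.59 and 12.52 in control and 12.14 and 12.25 in knockdown cells. The groups were again separate, and Mars1 fell by 0.36 (SE 0.0704, adjusted p = 0.0298, limma), which is 1.28-fold.

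Lars encodes leucyl-tRNA synthetase, also of class I and of the complex, and known besides as a leucine sensor for mTORC1. Its values were 12.73 and 12.70 in control and 12.27 and 12.46 in knockdown cells. Lars fell by 0.35 (SE 0.0816, 95% interval -0.55 to -0.15, adjusted p = 0.0467, limma), which lies just inside the threshold. The knockdown arrays differed from each other by more than the controls did, with SDs of 0.134 and 0.0212 (n = 2 each).

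With any array left out the 3 changes kept their direction. Sars then ran from -0.605 to -0.475, Mars1 from -0.415 to -0.305 and Lars from -0.445 to -0.255. Those fits leave 1 residual degree of freedom, and limma called 0 of all 19938 genes in each, with 3495 to 4215 at an unadjusted p under 0.05. Kdm2b itself then had an adjusted p from 0.196 to 0.258, so the loss of the 3 calls in those fits says nothing about these genes in particular.

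The remaining cytosolic enzymes passed the threshold in neither direction, and their values formed a graded series. Vars, the valine enzyme, stood at -0.27 on the log2 scale (SE 0.0782; adjusted p from limma, 0.0789). It read 12.56 and 12.47 in control and 12.17 and 12.32 in knockdown cells, so that its arrays were separated too. Gars, for glycine, had -0.255 and Eprs, the fused enzyme for glutamate and proline, -0.24 (adjusted p = 0.0976 and 0.0745, limma).

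Next came the lysine enzyme Kars and the asparagine enzyme Nars, at -0.21 each, then Yars for tyrosine at -0.19, Cars for cysteine at -0.16, Iars for isoleucine at -0.14 and Hars for histidine at -0.135. The intervals of Kars, Nars and Yars lay below 0, while those of Cars (-0.333 to 0.013), Iars and Hars included it. Without knockdown replicate 1 Kars and Yars stood at -0.125 each, Cars at -0.105 and Hars at -0.035, and without control replicate 2 Hars stood at -0.04. The tryptophan enzyme Wars stood at -0.10, and Tars and its paralog Tarsl2, both for threonine, at -0.09 and -0.065. Smallest were Rars for arginine (-0.06), Qars for glutamine (-0.045) and Farsb, the beta subunit of the phenylalanine enzyme (-0.04). The alpha subunit of that enzyme, Farsa, was the only cytosolic synthetase above 0, at 0.07 (95% interval -0.0802 to 0.22).

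Iars had 2 probe sets. The brighter one, used here, read 13.81 and 13.90 in control and 13.67 and 13.76 in knockdown cells. The other read 13.31 and 13.34, and 13.12 and 13.15, a log2 fold change of -0.19 (adjusted p = 0.1, limma over every probe set with 1 symbol), in the same direction. The annotation gives both to Iars, which RefSeq places on chromosome 13, yet the 10 named probe sets numbered next to the brighter one all belong to genes of chromosome 1. For the other probe set 9 of 10 such neighbours belong to chromosome 13. Which copy of the sequence the brighter probe set reads was not tested. The shared probe set of Aars and Exosc6, which is not counted among the 38, read 12.25 and 12.23 in control and 11.99 and 12.14 in knockdown cells, a difference of -0.175.

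Both knockdown arrays were below both controls for 13 of the 19 cytosolic synthetases and above them for 1, Farsa, against 25% and 33.8% of all genes. The knockdown arrays were not equal in this respect. All 19 cytosolic genes were lower on knockdown replicate 1 than on knockdown replicate 2, as were 46.6% of all genes. The median distance from the control mean was -0.235 on knockdown replicate 1 and -0.105 on knockdown replicate 2, and these are also the cytosolic medians with only that knockdown array in the comparison. With knockdown replicate 1 left out, 16 of the 19 were below 0. The primitive endoderm markers differed between those arrays as well, with all 7 lower on knockdown replicate 1. Their median distance from the control mean was 0.52 on knockdown replicate 1 and 1.045 on knockdown replicate 2. The array with the larger rise of these markers thus had the smaller fall of the cytosolic synthetases. A link between the 2 shifts was not tested. Among the 4328 genes with a mean value above 11, a range that holds 18 of the 19, the median change was -0.01 and 35% lay below on both knockdown arrays, while the 18 had a median of -0.175.

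Known ATF4 targets among the cytosolic enzymes are Cars, Eprs, Gars, Iars, Lars, Mars1, Nars, Sars, Tars, Wars and Yars, a grouping from general knowledge that was drawn up with earlier results of these data known, so its counts are a description and no independent support. All 11 had a log2 fold change below 0, as did 41.7% of all genes and 51.2% of those with a mean above 11. Their median was -0.21, and the 3 genes that fell were among them (27.3%, against 7.19% of all genes). Of these 11, 10 had both knockdown arrays below both controls (90.9%, against 25% of all genes and 35% of those with a mean above 11). Tars overlapped, at 12.15 and 12.34 in control and 12.12 and 12.19 in knockdown cells. The 8 other cytosolic synthetases, Farsa, Farsb, Hars, Kars, Qars, Rars, Tarsl2 and Vars, had a median of -0.0625, with 0 past the threshold. Arrays were separated downward for 3 of the 8 (37.5%), near the 35% of genes with a mean above 11. Vars and Kars were the lowest of the 8. Whether the groups of 11 and 8 differ was not tested.

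**Figure D2:**
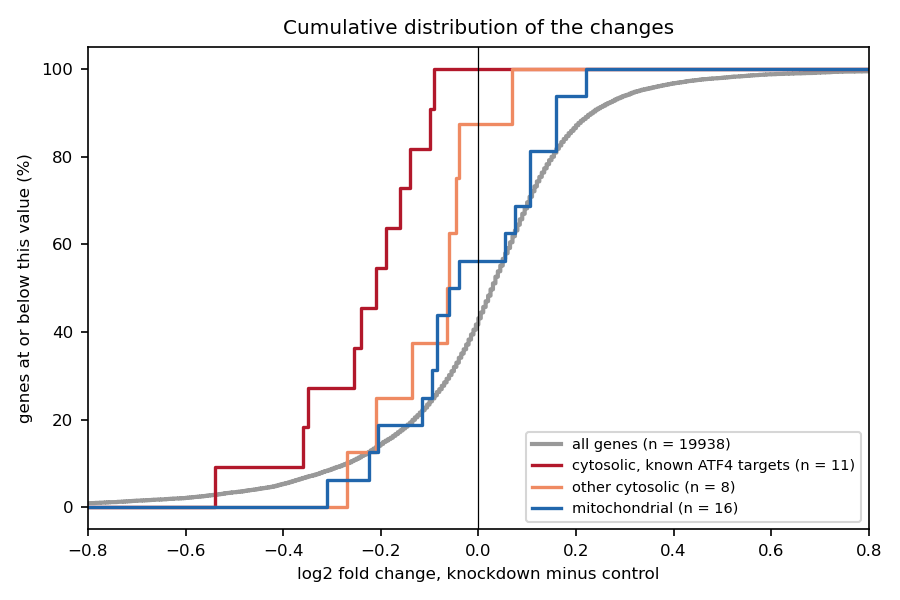
Cumulative share of genes (%) at or below each log2 fold change (knockdown minus control) for all 19938 genes, the 11 cytosolic synthetases known as ATF4 targets, the 8 other cytosolic and the 16 mitochondrial synthetases; the axis is cut at -0.8 and 0.8. The curve of the 11 lies wholly to the left of 0, and that of the mitochondrial genes crosses 0 at 56.2%.

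ATF4 pairs with C/EBP proteins on an element whose letters were searched as TGATGNAA, on both strands, in RefSeq promoter windows of assembly GRCm38.p6 that run from 250 bases before to 50 bases after a gene's start. Of the 38 genes 29 had a window, and 4 of these (13.8%) held the element, against 4.51% of all 27025 genes with a window. The 4, Gars, Iars, Tars and Yars, all belong to the ATF4 target group. They are shown because they place the element within 30 bases of the start, each as 30 bases read along the strand of the element, which is in capitals. They come from chr6:55037960-55037989 (minus strand), chr13:49682126-49682155 (minus), chr15:11399655-11399684 (plus) and chr4:129189895-129189924 (plus).
Gars: cgcccggtgcaTGATGAAAtagcgcagcca
Iars: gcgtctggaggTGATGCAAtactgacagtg
Tars: agctaaccagcTGATGCAAcgggactcctg
Yars: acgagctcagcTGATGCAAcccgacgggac

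In Gars and Tars the match starts 30 and 15 bases before the annotated start and lies on the strand opposite to the gene. In Iars and Yars it starts at base 8 and base 4 after it, on the opposite strand in Iars and on the gene's own strand in Yars. Iars, Tars and Yars share all 8 letters, and Gars differs at the N. None of these 4 passed the threshold, with log2 fold changes from -0.255 to -0.09. Sars and Mars1, which fell, had no match in their windows, and Lars had no window. No match says only that these letters are missing from this window.

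The E-box CACGTG, which Myc and related factors bind, was in the windows of Ears2, Farsb, Iars and Tars, again 13.8% of the 29, against 8.09% of all genes; Iars and Tars thus held both elements. Myc rose by 1.025 on the log2 scale after knockdown (11.57 and 11.95 in control, 12.67 and 12.90 in knockdown cells, adjusted p = 0.0136, limma). The 4 genes with the E-box stood from -0.14 (Iars) to -0.04 (Farsb), and none passed the threshold. A link between Myc and these genes was not tested. The letters GCGCATGCG, a core of the site of NRF1, a factor of nuclear genes for mitochondrial proteins, were found in 2 of the 29 windows (6.9%, against 1.95% of all genes), both of mitochondrial enzymes. Vars2 holds them at 2 places and Wars2 at 1, shown here along the strand of the match with the motif in capitals, from chr17:35667620-35667649 (plus strand), chr17:35667594-35667623 (plus) and chr3:99141016-99141045 (plus).
Vars2, 47 bases before the start: gggacacgcagGCGCATGCGtaaaagactc
Vars2, 21 bases before the start: gcgaggtgcgcGCGCATGCGtgggcgggga
Wars2, 64 bases before the start: cagaggacagGCGCATGCGtagtaagcaca

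Neither gene passed the threshold, at -0.095 (Vars2) and -0.04 (Wars2). The windows of the 29 genes were rich in CpG, the dinucleotide that Kdm2b's zinc finger binds when unmethylated, with a median of 19 CpG per 300-base window (7 to 36) against 7 over all genes. The median was 19 for the 15 windows of cytosolic genes and also for the 14 of mitochondrial genes. The E-box and the NRF1 letters hold CpG themselves, and their shares above were not adjusted for CpG content.

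No mitochondrial synthetase passed the threshold (limma; 3 lower and 2 higher at an unadjusted p under 0.05, where 14.7% and 15.1% of all genes were). The lowest was Iars2, the mitochondrial isoleucine enzyme, at 11.66 and 11.68 in control and 11.28 and 11.44 in knockdown cells. It stood at -0.31 on the log2 scale (SE 0.0756, 95% interval -0.496 to -0.124, adjusted p = 0.052, limma), just outside the threshold. Its groups did not overlap. Nars2 and Tars2, for asparagine and threonine, followed at -0.225 and -0.205 (adjusted p = 0.0709 and 0.0893, limma).

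At the other end stood Mars2, the mitochondrial methionine enzyme, with 10.09 and 9.99 in control and 10.22 and 10.30 in knockdown cells, a log2 fold change of 0.22 (adjusted p = 0.0992, limma). Aars2 and Cars2, for alanine and cysteine, were at 0.16 each. Hars2 and Sars2, for histidine and serine, were at 0.105 each, Fars2 for phenylalanine at 0.075 and Yars2 for tyrosine at 0.055. Between these ends lay Pars2 for proline (-0.115), Vars2 for valine (-0.095), Ears2 for glutamate and Lars2 for leucine (-0.085 each), Rars2 for arginine (-0.06) and Wars2 for tryptophan (-0.04). Both knockdown arrays were below the controls for 6 of the 16 (37.5%) and above them for 7 (43.8%), where all genes had 25% and 33.8%. Genes of like level lay nearer to the 37.5%. Of all genes with a mean value from 9 to 11, a range that holds 11 of the 16, 36.6% lay below on both knockdown arrays. Above 11, which holds the other 5, 35% did.

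The mitochondrial median of -0.05 rested on single arrays. Leaving out control replicate 1 or 2 gave -0.0125 or -0.085, and leaving out knockdown replicate 1 or 2 gave -0.0175 or 0.01. Quantile normalization gave -0.0262, and centring the arrays on their medians -0.09.

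The cytosolic and the mitochondrial enzyme for the same amino acid could be set side by side for 15 amino acids, in 16 pairs of genes, since phenylalanine has 2 cytosolic subunits; Eprs is paired with both Ears2 and Pars2. In 6 pairs the cytosolic gene was below 0 and the mitochondrial gene above 0, in 9 both were below 0, and in the pair of Farsa and Fars2 both were above. The log2 ratio of cytosolic to mitochondrial signal within an array went down after knockdown in 12 pairs and up in 3, by a median of -0.14. The 12 include Farsa with Fars2, at -0.005. Ratios on both knockdown arrays lay below both controls in 9 pairs and above them in 2, and overlapped in 5. No share over all genes was computed for such ratios, and pairs that share Eprs or Fars2 are not independent.

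**Figure D3:**
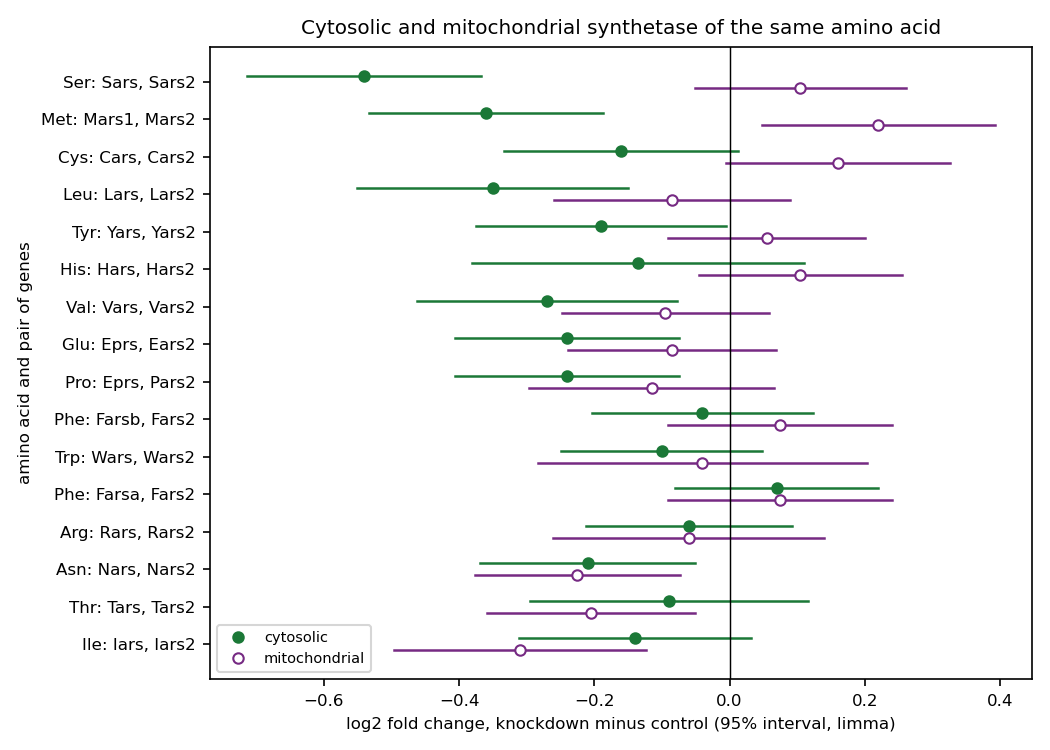
Log2 fold change (knockdown minus control) of the cytosolic (filled) and mitochondrial (open) synthetase gene of each amino acid, with the 95% interval from limma, ordered by the difference between them. The intervals of the serine and of the methionine pair do not overlap.

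Serine and methionine gave the widest gaps. Sars fell, while Sars2 read 11.70 and 11.63 in control and 11.75 and 11.79 in knockdown cells (0.105, 95% interval -0.0517 to 0.262, adjusted p = 0.324, limma). The log2 ratio of Sars to Sars2 was 1.46 and 1.54 in control and 0.81 and 0.90 in knockdown cells, a change of -0.645. The ratio of Mars1 to Mars2 went from 2.515 ± 0.0212 to 1.935 ± 0.0212 (SD, n = 2 each), a change of -0.58. For both ratios the exact permutation test over arrays gave a two-sided p of 0.333, the smallest that 2 arrays against 2 allow.

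The leucine pair differed less. Lars2 read 9.40 and 9.31 in control and 9.32 and 9.22 in knockdown cells, with overlapping groups (-0.085, adjusted p = 0.469, limma), and the ratio of Lars to Lars2 changed by -0.265. For cysteine the ratio of Cars to Cars2 changed by -0.32, although neither gene passed the threshold. Ratios went the other way for isoleucine (0.17), threonine (0.115) and asparagine (0.015), and for arginine the change was 0. Hars and Hars2, which are neighbours in RefSeq, were at -0.135 and 0.105.

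In the multisynthetase complex, 9 genes were measured besides Eef1e1, and 2 of them, Mars1 and Lars, fell (7.19% of all genes did). The scaffold gene Aimp1 read 11.04 on both control arrays and 10.81 and 10.90 after knockdown (-0.185, 95% interval -0.344 to -0.0257, adjusted p = 0.123, limma). Aimp2 lay the other way, at 11.50 and 11.51 in control and 11.60 on both knockdown arrays (0.095, adjusted p = 0.338). Eef1e1, the third scaffold, overlapped between the groups (0.065). The 7 synthetases of the complex had a median of -0.21 and the 12 cytosolic synthetases outside it -0.147. By class, the 9 cytosolic class I genes had a median of -0.16 and the 9 of class II -0.135, without Eprs, which holds both. The editing protein gene Aarsd1 overlapped between the groups (-0.045).

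Genes that share the pathway were examined as lists. These lists, too, were drawn up with earlier results of these data known, so their counts are a description and no independent support. The amino acid response list held 30 measured genes, ATF4 and its known targets in amino acid synthesis, uptake and stress. Of these 30, 11 fell (36.7%), 0 rose and 19 passed in neither direction, where 7.19% of all genes fell and 5% rose. All 30 had a log2 fold change below 0, with a median of -0.292, against 41.7% of all genes and a median of 0.03. All but Slc7a11 had a mean value above 9. Of all genes with a mean from 9 to 11, 52.1% were below 0 and 13.4% were called lower, with a median of -0.015. Above 11 these values were 51.2%, 7.93% and -0.01. Nupr1, a stress-induced chromatin protein gene, read 12.64 and 12.44 in control and 10.95 and 11.36 in knockdown cells and fell by 1.385 (SE 0.145, adjusted p = 0.00775, limma). The lipoprotein receptor gene Vldlr fell by 1.02, the glycine transporter gene Slc6a9 by 0.785 and the secreted glycoprotein gene Stc2 by 0.75. The 7 others that fell were Gpt2, Aldh18a1, Cebpg, Ddit4, Cth, Phgdh and Psph, of which Phgdh and Psph encode enzymes of serine synthesis.

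The list's median was -0.16 or -0.435 with knockdown replicate 1 or 2 left out and -0.21 or -0.412 with control replicate 1 or 2 left out. In addition, 26 of the 30 were lower on knockdown replicate 1 than on replicate 2, the same order as for the cytosolic synthetases. With any array left out, 0 of the 30 passed the threshold in limma.

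**Figure D4:**
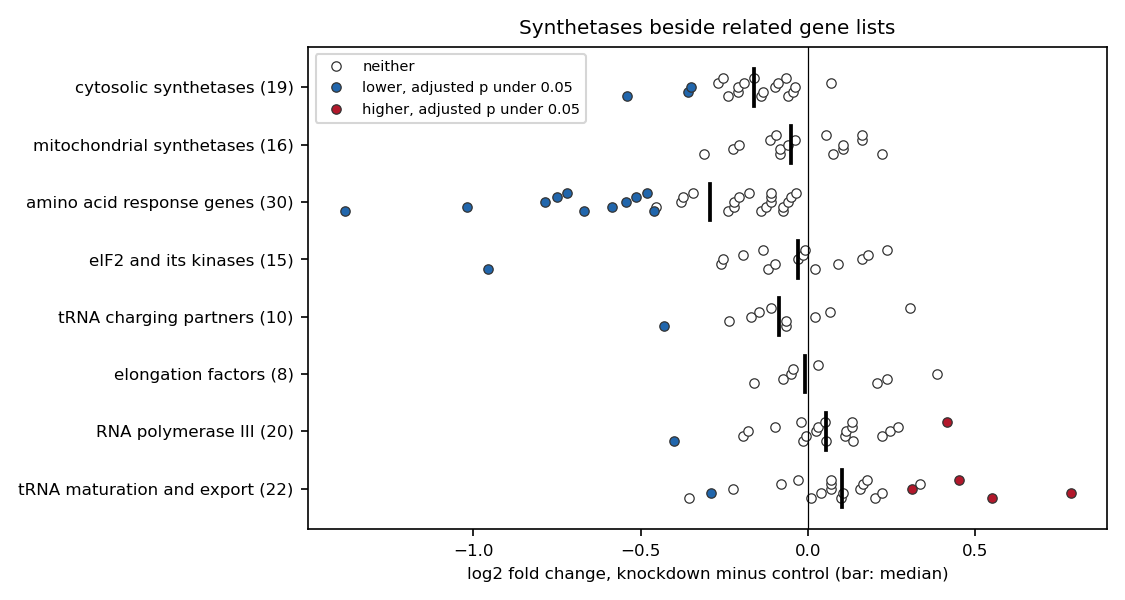
Log2 fold change (knockdown minus control) of each gene in the cytosolic and mitochondrial synthetases and in 6 related lists, with the number of genes in parentheses; filled points passed an adjusted p under 0.05 in limma and bars are medians. All 30 amino acid response genes lie to the left of 0, while the genes of tRNA maturation and export centre at 0.102. The lists were drawn up with earlier results of these data known.

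Atf4 itself read 11.17 and 11.24 in control and 11.04 and 11.30 in knockdown cells, so its groups overlapped (-0.035, 95% interval from limma -0.276 to 0.206, adjusted p = 0.845). Its value was 0.095 without knockdown replicate 1. Ddit3, another factor of this response, also overlapped (-0.375, adjusted p = 0.326, limma), and its value ran from -0.665 without knockdown replicate 2 to -0.085 without knockdown replicate 1. Arrays measure transcripts, and ATF4 is mainly controlled in translation, which these data do not cover. Of 15 genes of eIF2, its exchange factor, kinases and phosphatases, 1 fell (6.67%, against 7.19% of all genes) and 0 rose. It was Impact, an inhibitor of Gcn2 activation. Impact read 12.97 and 12.82 in control and 11.94 on both knockdown arrays (-0.955, SE 0.0737, adjusted p = 0.00551, limma). Eif2ak4, the gene of Gcn2, had -0.26 (adjusted p = 0.0579).

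Among 10 partners of tRNA charging, 1 fell (10%, against 7.19% of all genes). This was Dtd1, which removes D-amino acids from tRNA, at -0.43 (11.02 and 11.12 in control, 10.65 and 10.63 in knockdown cells, adjusted p = 0.0166, limma). The other 9, such as the mitochondrial transamidation genes Qrsl1 (-0.145), Gatb (-0.17) and Gatc (0.305), passed in neither direction. Of 8 elongation factor genes, 0 passed in limma. At an unadjusted p under 0.05, 0 were lower and 3 higher (37.5%), where 14.7% and 15.1% of all genes were. The mitochondrial factor Tufm had 0.385 (adjusted p = 0.0589, limma) and Eef1d 0.235 (adjusted p = 0.0622). Tufm passed in limma after quantile normalization (adjusted p = 0.0479), with dim genes left out (0.0457) and when the prior followed intensity (0.0441). Eef1d passed after quantile normalization (0.0488) and with dim genes left out (0.0407), but not when the prior followed intensity (0.0569). Neither passed in limma with arrays centred on their medians (adjusted p = 0.061 for Tufm and 0.115 for Eef1d). Nor did either pass with probe sets averaged, with every probe set tested or with a robust prior.

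Genes that make the tRNA itself were examined too. Of 22 genes of tRNA maturation and export, 4 rose and 1 fell (18.2% and 4.55%, against 5% and 7.19% of all genes), with a median of 0.102 against 0.03 over all genes. The 4 were Rpp25l (0.785), Pop7 (0.45) and Rpp14 (0.31), of the RNase P family, and Clp1 (0.55), a kinase bound to the splicing endonuclease of tRNA; the gene that fell was Hsd17b10 (-0.29), a subunit of mitochondrial RNase P. Rpp14 had an adjusted p of 0.0549 in limma once arrays were centred on their medians. Of 20 genes of RNA polymerase III and its factors, Gtf3c6 rose by 0.415 and Gtf3c3 fell by 0.40, both subunits of TFIIIC. That is 5% each way, where 5% of all genes rose and 7.19% fell. The median was 0.0525, near that of all genes.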

How the data were processed

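Values were used as deposited: log2 expression of 35557 probe sets on 4 arrays. Per the submitters' processing notes the authors ran Affymetrix Expression Console; version, background correction and scaling of arrays: not given in the sources used here. The log2 scale itself was inferred from the range, 3.12 to 14.74. Column medians are 8.49, 8.51, 8.55 and 8.53, and the values are not centred per gene. Per the platform annotation 21789 probe sets had 1 symbol, 1621 several and 12147 no entry; by Entrez ID 21698 were found in RefSeq (GRCm38.p6), and 0 symbols were updated. The brightest probe set stood for each of 999 genes with several, and no filter on low values was used, so all 38 genes were tested.

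Knockdown was compared with control by limma 3.58.1 in R 4.3.3 (lmFit, eBayes with the default prior, two-sided, Benjamini-Hochberg over 19938 genes); standard errors are moderated (3.9 prior degrees of freedom), and a call is an adjusted p under 0.05. Single ratios were tested by exact permutation. The procedure was tested on simulated data. The number of arrays limits the precision.

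The genes, lists and roles were chosen with earlier results of these data known. Every one of the 38 genes is named; of each related list, up to 4 called genes with the largest change are given, or 2 as values where none was called, with Kdm2b, Atf4, Ddit3, Impact and Myc always. Other list genes (the remaining amino acid response genes, Eif2ak4, Qrsl1, Gatb, Gatc, Eef1e1 and Hsd17b10), Lin28a, the levels classes and the comparison of probe set numbers for Iars were chosen after their values were seen. Alternatives were the replicate block, each array left out, quantile normalization, median centring, dim genes left out (mean at or under 9), averaging of probe sets per gene, every probe set, a trend or robust prior, and treat against a 1.2-fold change.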

Additional observations from a re-analysis of the deposited data

How the results depend on the processing

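With each array left out in turn, 0 of the 38 synthetase genes, 0 amino acid response genes and 0 genes in all were called lower or higher (lowest and highest 0), in fits with 1 residual degree of freedom in which Kdm2b was not called either; the cytosolic median then ran from -0.235 to -0.105, the mitochondrial from -0.085 to 0.01 and that of the amino acid response genes from -0.435 to -0.16. With the replicate number as a block the counts were also 0 lower and 0 higher, for synthetases, amino acid response genes and all genes. That fit too leaves 1 residual degree of freedom, and Kdm2b was not called in it (adjusted p = 0.127, limma). Same-numbered arrays deviated together with a correlation of 0.0954 across genes, which with 2 arrays per group cannot decide whether they are paired. The labels do not say that the numbers pair the arrays, so the main fit has no block. The synthetase genes called lower were 5 after median centring of the arrays and 5 when dim genes were dropped (Iars2 and Nars2 joined, and Tarsl2 was not tested in the latter), 6 with an intensity trend in the prior (Eprs, Nars and Iars2 joined), and 0 under treat against a 1.2-fold change, which called 1 amino acid response gene, 185 genes lower and 97 higher. Sars, Mars1 and Lars were called in all of these but treat, and in the others without a block and with all arrays. The mitochondrial median was -0.0262 after quantile normalization and -0.09 with median centring. Signs turned for genes near 0 without an array: Wars2 (0.015 without control replicate 1, 0.085 without knockdown replicate 2), Tars (0.005) and Aarsd1 (0.025) without control replicate 2, and Tarsl2 (0.04), Aarsd1 (0.02), Farsb (0.01), Rars2 (0.035) and Atf4 (0.095) without knockdown replicate 1. With each array left out in turn, these values ran from -0.165 to 0.085 for Wars2, -0.185 to 0.005 for Tars, -0.115 to 0.025 for Aarsd1, -0.17 to 0.04 for Tarsl2, -0.09 to 0.01 for Farsb, -0.155 to 0.035 for Rars2 and -0.165 to 0.095 for Atf4. The cause of these shifts was not tested.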
